A study of Homo sapiens with 12 samples.

Results

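Genes of DNA replication and mitosis were examined in 2 glioma cell lines, U373 and U87MG, grown alone or sharing medium across a membrane. The members are 49 named genes, taken through every array probe that the annotation gives to 1 of them only. They comprise 26 replication genes, around the E2F, MCM and CDT1 genes, and 23 mitosis genes. All 49 have a probe (68 probes), out of 18665 genes with a probe in the series. Levels come from 12 Illumina HumanWG-6 v3 BeadChip arrays, 1 for each culture, in 4 groups of 3 biological replicates: U373 monoculture, U373 co-culture, U87MG monoculture and U87MG co-culture. Both are established lines from human glioblastoma, and no group carried an introduced allele or a drug treatment. Indirect co-culture lasted 72 h across pores of 0.4 µm. U373 cells always grew in the insert and U87MG cells always in the bottom well, in monoculture too, so line and chamber cannot be told apart. Each culture was a whole population: fewer cells in S phase or mitosis and less RNA per such cell cannot be told apart.

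A cell copies its DNA once in each division cycle. Before S phase, the ORC, CDC6 and CDT1 proteins load the MCM2 to MCM7 ring, the replicative helicase, onto origins. In S phase the helicase is switched on with CDC45 and the GINS complex, and polymerases follow it with the sliding clamp PCNA. Transcription of these genes is driven largely by E2F factors once cyclin and CDK activity has freed them from RB proteins. Genes of mitosis peak later, in G2 and M phase, under the DREAM complex, MYBL2 and FOXM1, through a promoter element called the cell cycle genes homology region (CHR), often beside CCAAT boxes. In glioblastoma the products of many of these genes serve as markers of proliferation, MKI67 (the Ki-67 antigen) above all.

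Values are given as levels on a log2 scale, so that 1 unit is a doubling. They come from intensities that were variance-stabilized, a scale that flattens near background and understates the changes of dim genes. An array's background limit lay between 4.41 and 5.73, and 23.7% to 33.5% of probes exceeded it. The 10696 genes above the limit on at least 3 of 12 arrays were tested with limma, with the spread pooled over all 4 groups. A gene was called when its p, adjusted by Benjamini-Hochberg over all tested genes, was under 0.05. Of the 49 members, 45 were tested (23 replication and 22 mitosis genes) and 42 were above background on all 12 arrays. The 4 others, E2F1, CCNE2, GINS1 and MYBL2, were at background on every array and have no usable level here. E2F1, for example, ranged from 2.60 to 3.92. Every U373 array and no U87MG array showed the glial markers GFAP and SOX2 above background, whereas OLIG2 was above it on every U87MG array and on no U373 array (difference -3.71 in monoculture), and VIM was bright in both lines. The leukocyte markers PTPRC, CD3E and ITGAM were at background throughout. CD68, a lysosomal protein of macrophages that other cells also make, was above background on all arrays and lower in U373 monoculture (-3.72), and the dim CD14 was higher there (0.87). Of tested endothelial markers, CDH5 was higher in U373 than in U87MG co-culture (2.34), TEK (-3.46) and PECAM1 (-0.55) were lower, and VWF was not called. Of tested neuron markers, GAD1 (-3.2) and SNAP25 (-3.03) were lower in U373 co-culture, and STMN2 and SYT1 were not called. Correlations were 0.9807 to 0.992 within groups and 0.8037 to 0.8275 between the lines. P-values rest on the spread between biological replicates within groups, pooled over the 4 groups and drawn by limma toward the spread of all tested genes. The number of arrays limits the precision of every comparison.

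The 2 groups of genes carried different promoter elements. RefSeq promoter windows on GRCh38.p14, from 250 bases before to 50 bases after a transcript start, were given for 41 of the 49 members (54 windows). They were searched on both strands for E2F cores (TTNNCGC with C or G at both N positions), the CHR (TTTGAA) and the CCAAT box (CCAAT). None of the 3 kinds contains another, but a reversed CCAAT box can share bases with an E2F core, and E2F cores on opposite strands can overlap and then count as 2 matches. An E2F core lay in 17 of 22 replication genes (77.3%) and 3 of 19 mitosis genes (15.8%), against 15.3% of the 27305 genes of the table. The CHR showed the reverse: 1 of 22 replication genes (RRM1) and 12 of 19 mitosis genes (63.2%) held it, against 18.2% of all genes. CCAAT boxes were present in 15 of 22 and 16 of 19 genes, against 39.7%. A match is a string of letters and not a measured binding site.

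The first set shows E2F cores, in capitals for matches on either strand, in the 160 bases before the start of 4 replication genes. E2F2 (chr1:23531234-23531393, minus strand) and CDT1 (chr16:88803629-88803788, plus strand) had the widest spread between replicates, and GINS2 (chr16:85688955-85689114, minus strand) ranked the U373 arrays of each culture as E2F2 did. MCM6 (chr2:135876444-135876603, minus strand), a subunit of the helicase ring, was lower in U373 cells and has 2 pairs of overlapping cores.
E2F2: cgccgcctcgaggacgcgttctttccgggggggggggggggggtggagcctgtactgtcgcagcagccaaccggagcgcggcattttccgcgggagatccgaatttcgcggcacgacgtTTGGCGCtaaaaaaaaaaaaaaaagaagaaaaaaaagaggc
CDT1: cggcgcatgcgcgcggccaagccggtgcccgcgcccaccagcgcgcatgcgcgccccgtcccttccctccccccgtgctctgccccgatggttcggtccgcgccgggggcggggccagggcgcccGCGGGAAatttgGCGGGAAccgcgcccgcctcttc
GINS2: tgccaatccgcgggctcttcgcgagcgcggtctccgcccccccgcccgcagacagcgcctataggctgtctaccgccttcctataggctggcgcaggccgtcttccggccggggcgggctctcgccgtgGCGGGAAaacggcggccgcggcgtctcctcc
MCM6: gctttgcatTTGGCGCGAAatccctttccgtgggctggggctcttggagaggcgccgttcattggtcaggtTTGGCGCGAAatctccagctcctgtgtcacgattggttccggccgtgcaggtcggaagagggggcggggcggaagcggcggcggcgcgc

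The second set shows the CHR, in capitals for matches on either strand, in the same stretch of 4 mitosis genes, whose RNA levels ran in different directions. PLK1 (chr16:23678729-23678888, plus strand) and ESPL1 (chr12:53268139-53268298, plus strand) were lower in U373 cells. MKI67 (chr10:128126424-128126583, minus strand) was higher there, and CDC20 (chr1:43358821-43358980, plus strand) did not pass the test between the lines.
PLK1: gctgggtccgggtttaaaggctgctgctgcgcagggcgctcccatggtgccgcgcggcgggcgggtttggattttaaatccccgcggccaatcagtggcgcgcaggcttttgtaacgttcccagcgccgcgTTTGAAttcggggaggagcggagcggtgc
ESPL1: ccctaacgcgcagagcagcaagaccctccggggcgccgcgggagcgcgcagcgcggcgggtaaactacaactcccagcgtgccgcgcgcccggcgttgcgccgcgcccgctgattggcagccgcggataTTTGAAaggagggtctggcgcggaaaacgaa
MKI67: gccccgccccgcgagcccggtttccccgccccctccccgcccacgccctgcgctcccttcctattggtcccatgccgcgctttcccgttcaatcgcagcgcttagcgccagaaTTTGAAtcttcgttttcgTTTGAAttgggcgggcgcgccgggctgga
CDC20: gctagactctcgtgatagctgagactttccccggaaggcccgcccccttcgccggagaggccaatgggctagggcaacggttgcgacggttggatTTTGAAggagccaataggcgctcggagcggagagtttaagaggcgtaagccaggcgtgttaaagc

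The plot of motif distances shows all matches in the windows. Of 31 E2F cores in the windows of replication genes, 21 began between 100 bases before and 20 bases after a start, as did 13 of 18 CHR matches in the windows of mitosis genes. Windows of 1 gene with several starts overlap, so some matches are counted more than once. Both elements were found among genes called in either direction between the lines. In monoculture an E2F core lay in 7 of 8 replication genes called lower in U373 cells that had a window, in both called higher (TK1 and TYMS), and in 6 of 10 not called. A CHR lay in 3 of 6 mitosis genes called lower, in 3 of 4 called higher and in 6 of 8 not called.

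**Figure D1:**
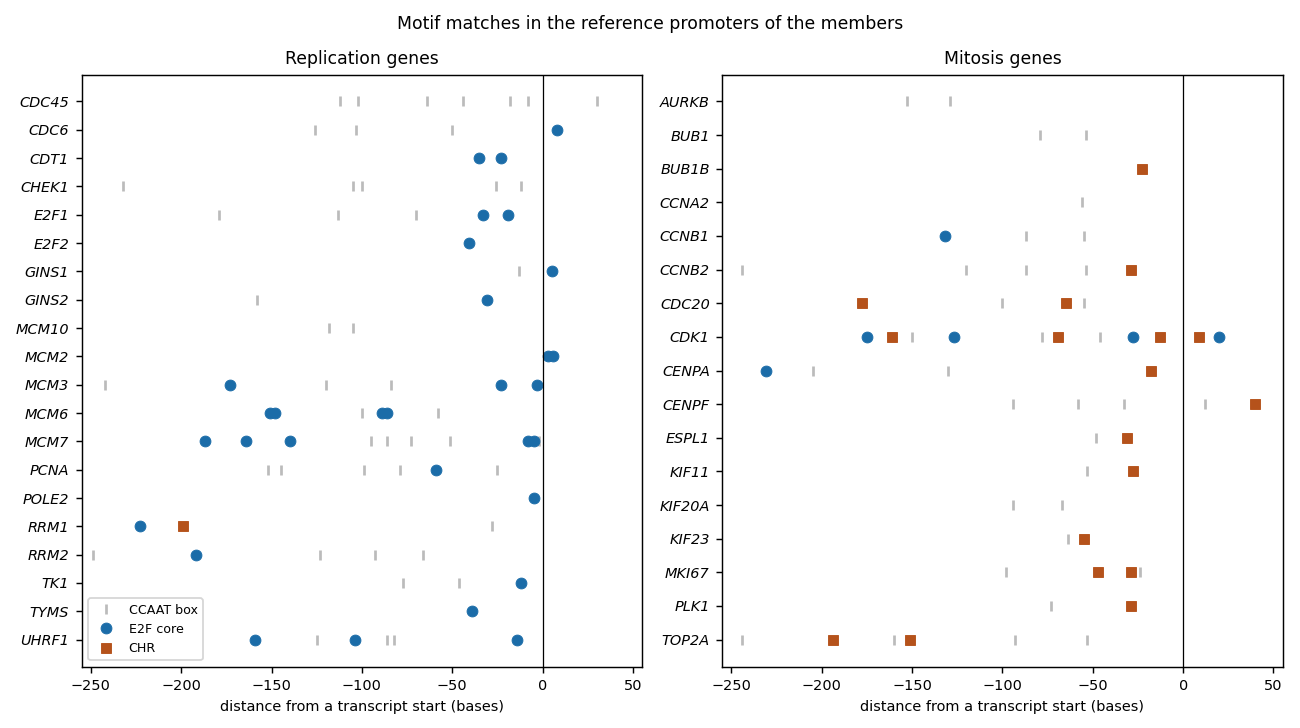
Matches to E2F cores (blue circles), the CHR (orange squares) and CCAAT boxes (grey ticks) against the distance of their first base from a transcript start, in bases, for replication genes (left) and mitosis genes (right) with any match. E2F cores gather near the start in the left panel and the CHR in the right panel.

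U373 and U87MG monocultures were compared first, to ask how the proliferation programs of the lines differ. Of 45 tested members, 8 were higher and 16 lower in U373 cells. Over all tested genes, 58.9% were called (27.7% higher and 31.2% lower), and the members' 53.3% is close to that background. The replication genes leaned to lower levels in U373 cells: 2 were called higher and 9 lower of 23, with a median difference of -0.38 against -0.05 over all tested genes. The mitosis genes split, with 6 called higher and 7 lower of 22 and a median of -0.03. That split is of the listed members only, since the mitosis genes outside them, described further below, leaned lower. The arrays of one line did not overlap with those of the other for 27 members (60.0%; 10 higher and 17 lower), against 63.8% of all tested genes (29.9% and 33.9%).

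The MCM2 to MCM7 genes, which encode the helicase ring, make up the origin-licensing genes together with CDC6 and CDT1. Of the 8 origin-licensing genes, 5 were called lower in U373 monoculture and 7 had a negative difference. Over all tested genes, 31.2% were called lower and 27.7% higher. MCM5 measured 9.24, 9.13 and 8.86 in U373 monoculture and 10.50, 9.81 and 10.31 in U87MG monoculture. Every U373 array was below every U87MG array, by a mean log2 difference of -1.13 (standard error 0.22, limma adjusted p = 0.000357), or 2.19-fold. MCM2 gave 9.50, 9.12 and 9.11 in U373 against 10.08, 9.80 and 9.86 in U87MG cells. The ranges did not overlap, and the difference was -0.67 (standard error 0.20, adjusted p = 0.0083, limma). MCM6 gave 10.65, 10.60 and 10.13 against 11.22, 11.11 and 11.03, again without overlap, with a difference of -0.66 (standard error 0.20, adjusted p = 0.0112, limma). Without U373 monoculture replicate 3, the lowest array, it was -0.50 and no longer passed (adjusted p = 0.0575). MCM3 differed by -0.53 (adjusted p = 0.0101), a call lost on leaving out U373 monoculture replicate 2 (-0.41, adjusted p = 0.0515). MCM4 was the subunit with the smallest difference, -0.17 (95% confidence interval -0.54 to 0.21), and did not pass.

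MCM7 depended on the probe. Its 3 probes were averaged to -0.87 (standard error 0.16, adjusted p = 0.000296, limma), but the brightest probe alone gave -0.26 (adjusted p = 0.261). A dimmer probe, above background on all 12 arrays, gave -1.29, and the dimmest, above background on 5 arrays, gave -1.05. The licensing factors CDC6 and CDT1 were not called. CDC6 was dim, with 5.23, 4.77 and 5.36 in U373 against 5.83, 5.59 and 5.40 in U87MG cells. Its difference of -0.48 did not pass (adjusted p = 0.0804, limma), but did with the replicate number as a block (adjusted p = 0.0471), in a fit of the 2 groups alone (0.0426) and without U87MG co-culture replicate 3 (0.0464). CDT1 had a difference of 0.09 with an interval of -0.84 to 1.02, the widest of all members.

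Of 8 tested genes of the replication fork and of nucleotide supply, 3 were called lower in U373 monoculture and 2 higher. That share is near the 58.9% called over all tested genes (27.7% higher and 31.2% lower). POLE2, the second subunit of DNA polymerase epsilon, measured 7.56, 7.33 and 7.19 in U373 and 8.76, 8.98 and 8.96 in U87MG monoculture. The lines were separated by more than 1 unit on every array. The difference was -1.54 (standard error 0.16, adjusted p = 1.06e-06, limma), or 2.91-fold, the largest among the members. RRM1, the large subunit of ribonucleotide reductase, measured 11.38, 10.90 and 11.39 against 12.19, 12.17 and 12.05. It was lower on every U373 array, with a difference of -0.91 (standard error 0.16, adjusted p = 0.000147, limma). The small subunit RRM2 did not follow, with a difference of -0.26 (interval -0.70 to 0.18). FEN1, the flap endonuclease that processes Okazaki fragments, differed by -0.63 (standard error 0.17, adjusted p = 0.0055, limma), and its brightest probe alone by -0.42 (adjusted p = 0.0694).

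Both thymidylate genes ran the other way. TYMS, thymidylate synthase, measured 11.83, 11.80 and 11.73 in U373 and 11.49, 11.38 and 11.52 in U87MG monoculture. The ranges were narrow and did not overlap, and the difference was 0.32 (standard error 0.13, adjusted p = 0.044, limma). TK1, thymidine kinase, measured 11.48, 11.18 and 10.96 against 10.95, 10.64 and 10.55, with the ranges almost touching and a difference of 0.49 (standard error 0.19, adjusted p = 0.035, limma). Both calls were near the threshold. TK1 lost its call without any of 4 arrays: U373 monoculture replicate 1 (0.36, adjusted p = 0.156) or 2 (0.51, 0.0602), or U87MG monoculture replicate 2 (0.46, 0.0927) or 3 (0.41, 0.121). TYMS lost it without any of 9 of the 12 arrays, at differences of 0.28 to 0.35 and adjusted p-values up to 0.123 (without U87MG monoculture replicate 2). PCNA did not pass on the average of 3 probes (0.16, adjusted p = 0.449), of which 2 were near background. Its bright probe alone gave 0.69 and passed (adjusted p = 0.0212).

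Of the G1/S regulators, UHRF1, which brings maintenance methylation to replicated DNA, was called lower in U373 monoculture. It measured 8.23, 7.65 and 8.19 against 9.24, 8.94 and 9.02, without overlap, with a difference of -1.05 (standard error 0.19, adjusted p = 0.000241, limma). Its bright probe gave only -0.48 (adjusted p = 0.104) and its dim probe -1.61. E2F2, an activating E2F factor, measured 9.98, 9.84 and 8.64 in U373 and 8.88, 8.47 and 8.22 in U87MG monoculture. U373 replicates 1 and 2 were above all U87MG arrays, and replicate 3 lay among them. The difference of 0.97 (standard error 0.43) did not pass (adjusted p = 0.0649, limma), but did with the replicate number as a block (adjusted p = 0.00495) and without U373 monoculture replicate 3 (1.39, adjusted p = 0.01). It also passed without U373 co-culture replicate 1 or 3, which enter only through the pooled spread (adjusted p = 0.012 and 0.0465), and in a fit of the 2 groups alone (0.0132). GINS2, a subunit of the GINS complex, also passed only with the block (0.40, adjusted p = 0.0454) or without that array (0.60, 0.0469). The checkpoint kinase CHEK1 and cyclin E1 (CCNE1) had differences of 0.16 and 0.33 and did not pass. The CCNE1 average includes a probe above background on no array (-0.19), and its 2 bright probes gave 0.52 and 0.68.

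**Figure D2:**
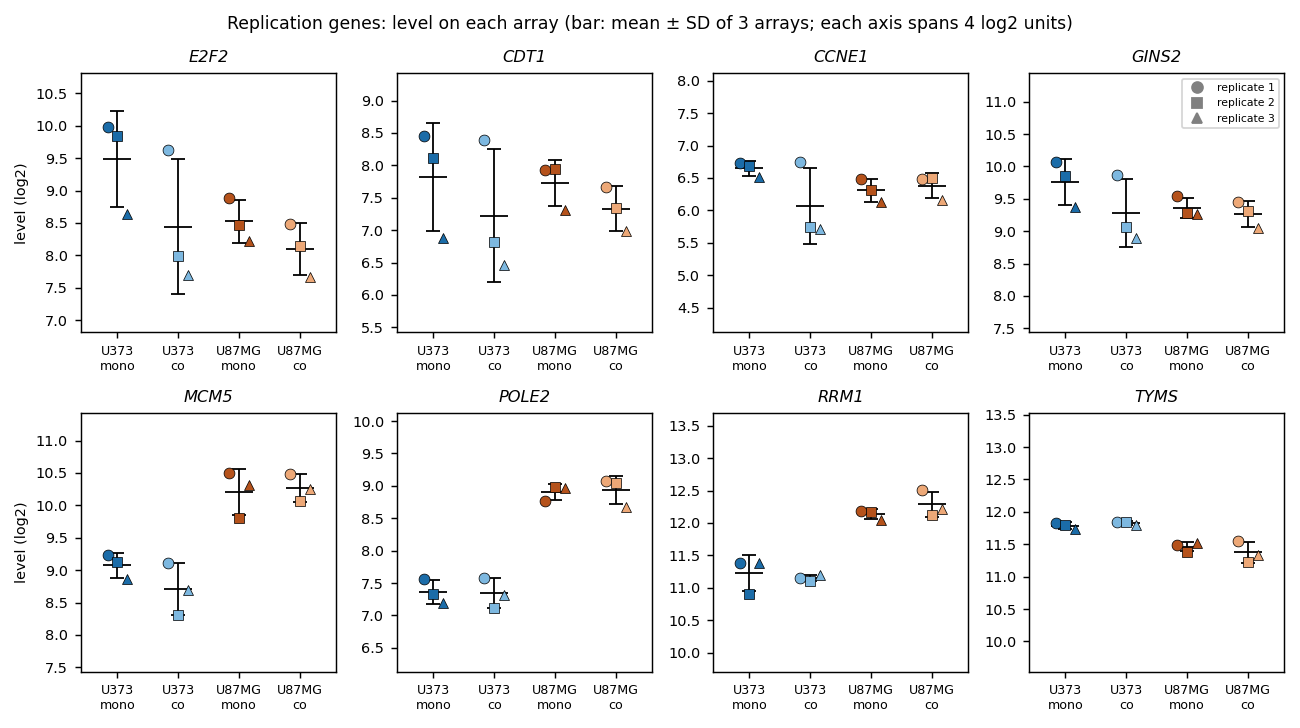
Level (log2) of 8 replication genes on each of the 12 arrays, by group; symbols mark the replicate number and bars the mean ± SD of 3 arrays. E2F2, CDT1, CCNE1 and GINS2 spread widely among U373 co-culture arrays, with replicate 1 highest, whereas MCM5, POLE2 and RRM1 were lower on all U373 arrays and TYMS was higher.

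The mitosis genes called lower in U373 monoculture include kinases and proteins of the spindle checkpoint. PLK1, a kinase that drives entry into and passage through mitosis, measured 6.87, 6.95 and 6.49 in U373 and 8.39, 8.14 and 8.05 in U87MG cells. The lines stood more than 1 unit apart, with a difference of -1.42 (standard error 0.19, adjusted p = 1.05e-05, limma), or 2.68-fold. ESPL1, the separase that cuts cohesin at anaphase, measured 7.28, 7.17 and 7.0 against 8.54, 8.42 and 8.71. It was as clearly separated, at -1.41 (standard error 0.17, adjusted p = 3.3e-06, limma). BUB1, a checkpoint kinase, measured 8.45, 8.40 and 8.50 against 9.17, 9.11 and 9.51, again with no overlap, a difference of -0.81 (standard error 0.15, adjusted p = 0.000352, limma). BUB1B (BUBR1), of the same checkpoint, was above background on all U87MG arrays (5.25, 5.54 and 5.82 in monoculture) and on no U373 array. Taken against the lowest values above background, it was at least 1.32-fold lower in U373 monoculture, a bound that was not tested. The limma result (adjusted p = 0.000456) is for the full difference, with U373 values at background. The gene entered the test only through its U87MG arrays.

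Cyclin A2 (CCNA2), the cyclin of S phase and G2, measured 9.70, 9.03 and 9.48 in U373 and 10.49, 10.13 and 10.21 in U87MG monoculture. Its ranges did not overlap and the difference was -0.87 (standard error 0.19, adjusted p = 0.00126, limma). CENPE, a kinesin of the kinetochore, differed by -0.72 (standard error 0.14, adjusted p = 0.000532, limma), also without overlap. AURKA, the Aurora kinase of spindle poles, had the weakest of these calls (-0.42, standard error 0.17, adjusted p = 0.0489, limma). Its arrays overlapped and the call was lost without any of 8 arrays, at most without U87MG monoculture replicate 1 (-0.30, adjusted p = 0.194). Its partner in name AURKB, of the chromosomal passenger complex, had a difference of -0.10 and did not pass.

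Other mitosis genes were higher in U373 monoculture. KIF20A, a kinesin of the central spindle, measured 10.80, 10.57 and 10.57 in U373 and 10.04, 9.71 and 9.72 in U87MG cells. All U373 arrays were higher, with a difference of 0.82 (standard error 0.19, adjusted p = 0.00162, limma). TTK (MPS1), the kinase at the head of the spindle checkpoint, measured 8.98, 8.65 and 8.93 against 8.20, 8.08 and 8.18. It was thus higher on every array, by 0.70 (standard error 0.15, adjusted p = 0.000916, limma), while BUB1 and BUB1B of the same checkpoint were lower. BIRC5 (survivin), of the chromosomal passenger complex, measured 9.31, 9.32 and 8.85 against 8.65, 8.34 and 8.36. It was also separated, by 0.71 (standard error 0.21, adjusted p = 0.00928, limma).

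MKI67 measured 7.33, 6.68 and 6.90 in U373 and 6.61, 6.23 and 6.24 in U87MG monoculture, with U373 replicate 2 only just above the brightest U87MG array. The difference was 0.61 (standard error 0.21, adjusted p = 0.0205, limma). It did not pass without U373 monoculture replicate 1 (0.43, adjusted p = 0.112) or without U87MG monoculture replicate 2 (0.54, 0.0706) or 3 (0.55, 0.0681). CENPF, a kinetochore protein (0.43, adjusted p = 0.0365), and cyclin B2 (CCNB2; 0.39, adjusted p = 0.0216) were called with smaller differences. Without U373 monoculture replicate 1 both fell to 0.29 and lost the call (adjusted p = 0.173 and 0.107). CENPF also lost it without U373 monoculture replicate 2 or U87MG monoculture replicate 1 or 3, and CCNB2 without U87MG monoculture replicate 2. TOP2A, topoisomerase II alpha, did not pass (0.36, adjusted p = 0.0621) except with the replicate number as a block (adjusted p = 0.0417), under a trended variance, or without U373 monoculture replicate 2 or 3. Of the genes of G2/M control, 3 did not pass: CDK1, the kinase of mitotic entry, had a difference of -0.24, cyclin B1 (CCNB1) one of 0.21 and the transcription factor FOXM1 one of -0.27 (adjusted p = 0.278, 0.263 and 0.131). FOXM1 passed only without U373 monoculture replicate 1 (-0.40, adjusted p = 0.0469). The spindle kinesins KIF11 and KIF23 and the centromeric histone CENPA had differences of 0.17 (interval -0.16 to 0.50), 0.00 (-0.41 to 0.42) and 0.05 (-0.28 to 0.38), none of which passed. These are averages over probes that gave 0.01 and 0.34 for KIF11, 0.25 and -0.24 for KIF23, and 0.14 and -0.04 for CENPA. Among the 16 members with 2 or more probes, 5 had probes of opposite sign in this comparison.

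**Figure D3:**
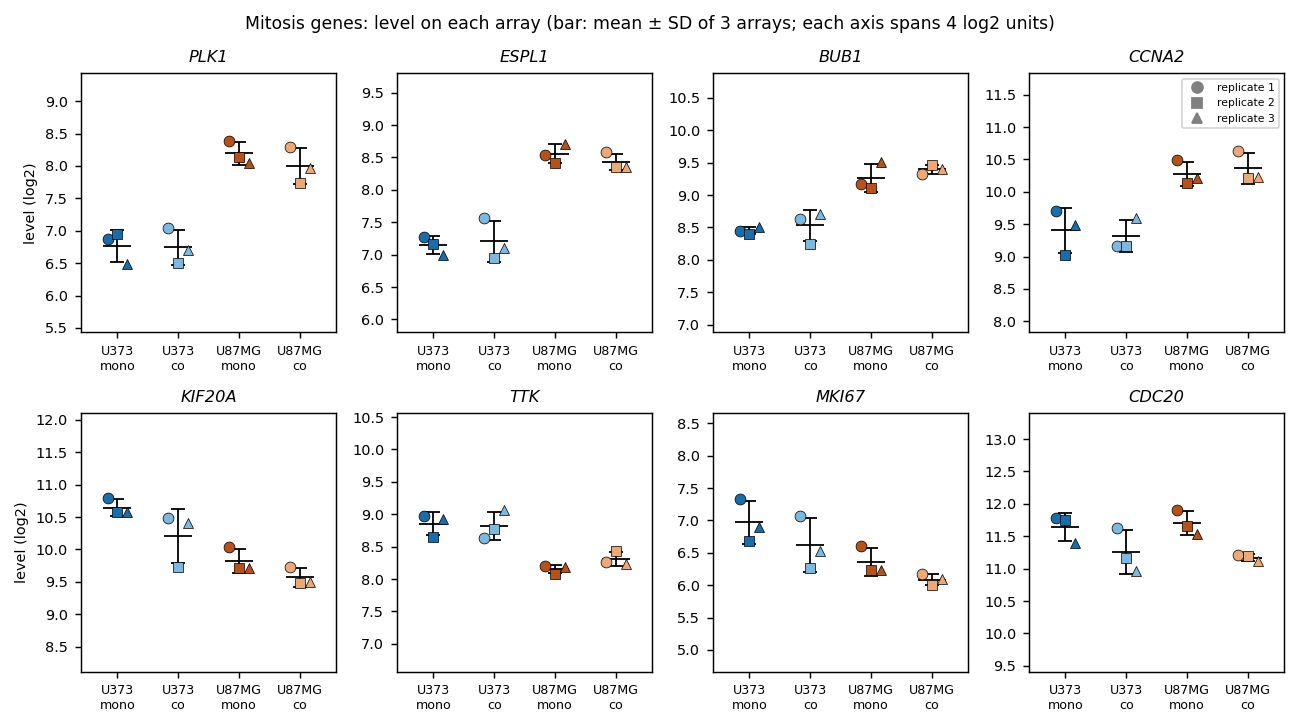
Level (log2) of 8 mitosis genes on each of the 12 arrays, by group; symbols mark the replicate number and bars the mean ± SD of 3 arrays. PLK1, ESPL1, BUB1 and CCNA2 were lower on all 6 U373 arrays, TTK was higher on all 6, and CDC20 overlapped between the lines in both cultures.

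The lines were then compared in co-culture, which used the other 6 arrays but the same pooled spread. Of 45 members, 7 were higher and 17 lower in U373 co-culture, and the 53.3% called again lay near the background of 57.2% (25.5% higher and 31.7% lower). The replication genes had 2 higher, 10 lower and a median of -0.34 against -0.07 over all tested genes. The mitosis genes had 5 higher, 7 lower and a median of -0.07. Called in the same direction in both cultures were 22 members: 6 higher (TYMS, TTK, KIF20A, BIRC5, MKI67 and CENPF) and 16 lower. Over all 10696 tested genes, 2428 were called higher and 2861 lower in both cultures, a share near that of the members. Groups did not overlap for 25 members (55.6%; 8 higher and 17 lower), against 62.5% of all tested genes (27.9% and 34.6%). All 8 origin-licensing genes had a negative difference in co-culture, and the same 5 were called lower, against 31.7% of all tested genes.

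MCM5 measured 9.11, 8.31 and 8.69 in U373 and 10.49, 10.07 and 10.25 in U87MG co-culture. The separation was wider than in monoculture, at -1.57 (standard error 0.22, adjusted p = 1.64e-05, limma), although the change of this difference did not pass (-0.44, adjusted p = 0.884). POLE2 measured 7.58, 7.12 and 7.32 against 9.08, 9.04 and 8.68, a difference of -1.59 (adjusted p = 7.7e-07, limma). PLK1 measured 7.04, 6.5 and 6.7 against 8.30, 7.74 and 7.97, a difference of -1.26 (adjusted p = 3.78e-05, limma). Both kept the order seen in monoculture on every array. BUB1B was at least 1.40-fold lower in U373 co-culture, again an untested bound. Its adjusted p (0.00282, limma) is for the full difference, with U373 values at background.

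Some calls in co-culture rested on single arrays. Without U373 co-culture replicate 1, BIRC5 (0.54 over all arrays) was at 0.26 (adjusted p = 0.236), MKI67 (0.54) at 0.31 (0.2) and CENPF (0.48) at 0.42 (0.0693), and the 3 calls were lost. CCNE1 (-0.66, adjusted p = 0.00351), CDC45 (-0.58, 0.0473) and CDC6 (-0.61, 0.0418) were then called lower, and the median of the replication genes went from -0.34 to -0.61. Over all arrays, the CCNE1 probe at background gave -0.65 in co-culture and its bright probes -0.29 and -0.02. Without U87MG co-culture replicate 3, CDC6 was also called (-0.68, adjusted p = 0.0169), and BIRC5 (0.51, 0.0962), MKI67 (0.54, 0.0758) and CENPF (0.44, 0.0649) were not. BIRC5 lost its call too without U87MG co-culture replicate 1 or 2 or U87MG monoculture replicate 2, and on its brightest probe (0.39, adjusted p = 0.139), and MKI67 without U373 co-culture replicate 3 or U87MG co-culture replicate 1 or 2. MCM7 (-0.48, adjusted p = 0.0197) lost it without U373 co-culture replicate 2 or 3 or U87MG co-culture replicate 1 (-0.44, -0.46 and -0.40), and its brightest probe gave -0.12 (adjusted p = 0.609). MCM4 (-0.34, adjusted p = 0.12) passed only with the replicate number as a block (0.0439).

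A call in 1 culture only was made for 4 members, TK1 and CCNB2 in monoculture and MCM10 and DSCC1 in co-culture. Over all 10696 tested genes, 1011 were called in monoculture only and 826 in co-culture only. MCM10, which helps to start unwinding, measured 7.31, 6.17 and 6.46 in U373 and 7.67, 7.39 and 7.16 in U87MG co-culture, with U373 replicate 1 overlapping. Its difference was -0.76 (standard error 0.24, adjusted p = 0.0138, limma), which did not pass without U373 co-culture replicate 2 (-0.52, adjusted p = 0.0783) or 3 (-0.67, 0.0505) or U87MG co-culture replicate 1 (-0.63, 0.0647). DSCC1, a subunit of an alternative clamp loader, differed by 0.64 (standard error 0.17, adjusted p = 0.00453, limma) but was close to background, with 4.97, 4.62 and 4.54 in U87MG co-culture. TK1 had a difference of 0.00 in co-culture and CCNB2 one of 0.13. For none of the 4 did the change of the difference between cultures pass the test (adjusted p = 0.778 to 0.928).

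**Figure D4:**
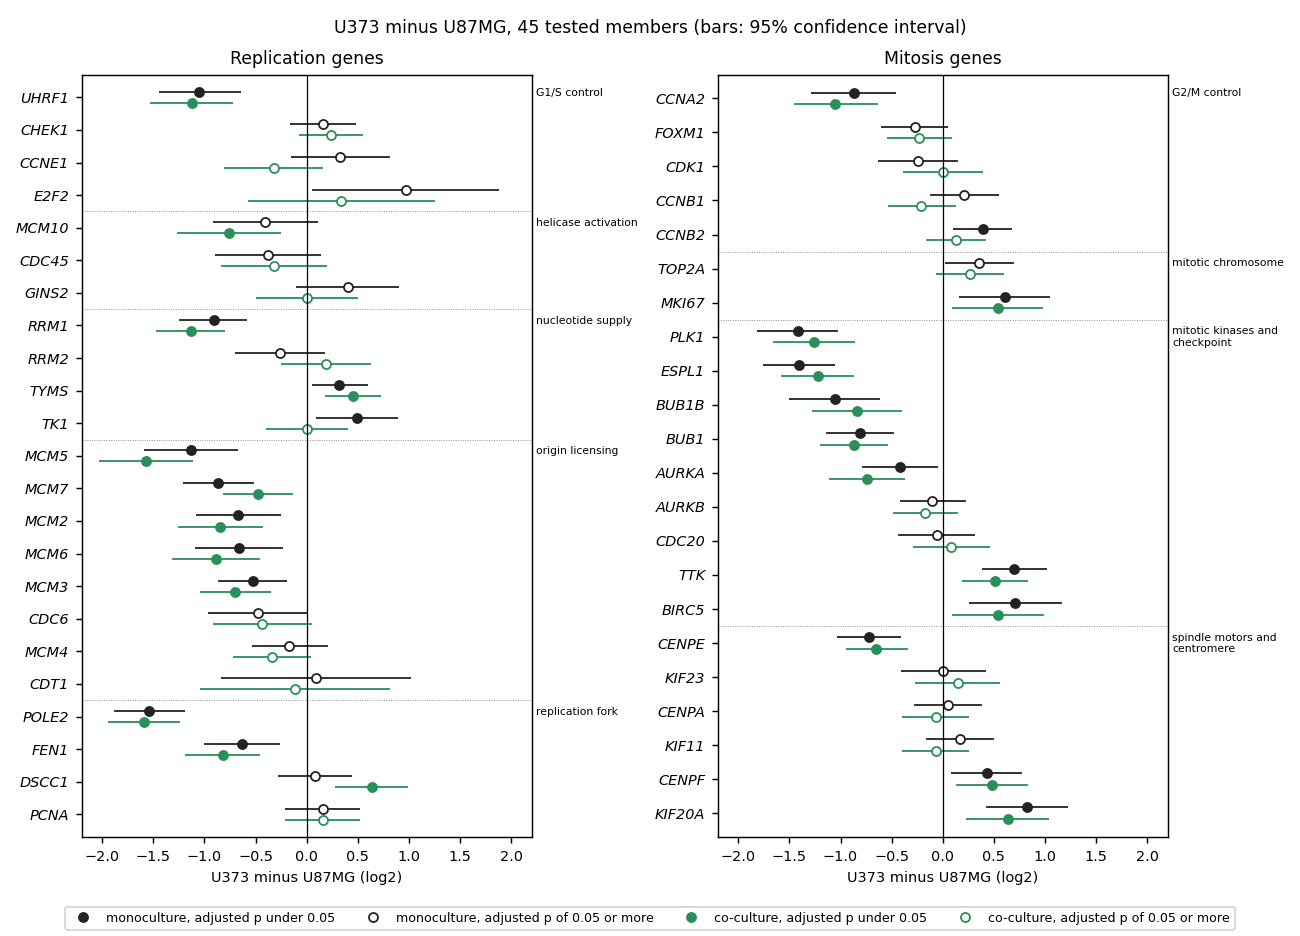
U373 minus U87MG (log2) for the 45 tested members in monoculture (black) and co-culture (green), by role; bars are 95% confidence intervals and filled points passed an adjusted p of 0.05. Most origin-licensing genes lie left of 0 in both cultures, while mitosis genes lie on both sides.

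Co-culture was compared with monoculture within each line next. No culture shared medium with a second culture of its own line, so the other line and added cells cannot be told apart. In U373 cells no member was called, where 0.112% of all tested genes were (12 of 10696; 0.0841% higher and 0.028% lower). Leaving out U373 co-culture replicate 1 raised that count of all genes to 158 (111 higher and 47 lower), against 3 to 22 without any other array. At an unadjusted p under 0.05, 5 members (11.1%) were lower in co-culture and none higher, against 9.51% of all tested genes (639 higher and 378 lower). Negative differences were found for 35 of 45 members, 19 of 23 replication genes and 16 of 22 mitosis genes, against 45.2% of all tested genes. The median was -0.17 for replication genes and -0.07 for mitosis genes, against 0.03 over all. Members measured on the same arrays are not independent of each other, and these counts carry no test. Co-culture and monoculture arrays did not overlap for 2 members, CCNB2 and KIF20A, both lower (4.44%), against 11.8% of all tested genes (6.44% higher and 5.39% lower).

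E2F2 had the largest difference in U373 cells. It measured 9.98, 9.84 and 8.64 in monoculture and 9.63, 7.99 and 7.70 in co-culture. Co-culture replicates 2 and 3 were below every monoculture array and replicate 1 was not. The difference was -1.05 (standard error 0.43, interval -1.96 to -0.13), or 2.07-fold, and did not pass (unadjusted p = 0.0275, adjusted p = 0.449, limma). CCNE1, the cyclin that starts S phase with CDK2, followed the same order, with 6.73, 6.69 and 6.52 in monoculture and 6.75, 5.74 and 5.71 in co-culture. Its difference was -0.58 (standard error 0.23, unadjusted p = 0.0223, adjusted p = 0.433, limma). Co-culture replicate 1 decided both results. Without it the differences were -1.64 for E2F2 (adjusted p = 0.0294, limma) and -0.92 for CCNE1 (adjusted p = 0.017, limma), and these 2 members were called, as were 158 of all tested genes. No other array, left out singly, gave a member called in this comparison.

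TK1 had a difference of -0.44 (unadjusted p = 0.0321, adjusted p = 0.468, limma) in U373 cells, from 11.48, 11.18 and 10.96 to 11.10, 10.45 and 10.74. Its arrays overlapped. Of the mitosis genes, KIF20A went from 10.80, 10.57 and 10.57 to 10.48, 9.73 and 10.41, all below monoculture, with a difference of -0.44 (unadjusted p = 0.0348, adjusted p = 0.48, limma). CDC20, the activator of the anaphase-promoting complex, went from 11.78, 11.75 and 11.39 to 11.63, 11.17 and 10.97 (-0.39, unadjusted p = 0.0454, adjusted p = 0.507, limma), and AURKA had a difference of -0.33 (adjusted p = 0.567). None of these passed the test. Of the MCM genes, MCM2 had a difference of -0.16 (interval -0.57 to 0.26) and MCM3 one of -0.19 (-0.53 to 0.15).

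E2F2 and CDT1 were also the members with the largest spread between replicates. Their pooled SD within groups was 0.69 and 0.70, larger than that of 99.7% of tested genes. CDT1 measured 8.46, 8.11 and 6.88 in U373 monoculture and 8.39, 6.82 and 6.46 in U373 co-culture, the same ranking of arrays as for E2F2. In U87MG cells it was steadier, with 7.93, 7.94 and 7.31 in monoculture and 7.67, 7.34 and 6.98 in co-culture. GINS2 (9.87, 9.07 and 8.89), CDC45 (9.80, 9.22 and 8.82) and CCNE1 were likewise highest in U373 co-culture replicate 1. Over the 23 replication genes, the median deviation from the group mean was 0.32 on that array, 0.19 on U373 monoculture replicate 1 and between -0.20 and 0.22 on the others, while over all tested genes it stayed between -0.07 and 0.05. Replicate 1 was the highest of its group in this measure in all 4 groups, and was so over the mitosis genes too. Their median deviation on replicate 1 was 0.14 in U373 monoculture, 0.16 in U373 co-culture, 0.06 in U87MG monoculture and 0.08 in U87MG co-culture. What same-numbered arrays share is not stated in the sources used here. At the other end, TYMS had a pooled SD of 0.09 and CCNB2 one of 0.11.

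In U87MG cells no member was called, and no gene at all (0.0% of 10696), with 750 tested genes (7.01%) at an unadjusted p under 0.05. Of the members, 2 (4.44%) reached that level, both lower in co-culture. DSCC1 measured 5.45, 5.35 and 5.50 in monoculture and 4.97, 4.62 and 4.54 in co-culture. The groups did not overlap, and the difference was -0.72 (standard error 0.17, unadjusted p = 0.00063, adjusted p = 0.6, limma), on a single dim probe above background on 2 of the 3 co-culture arrays. CDC20 measured 11.90, 11.66 and 11.54 in monoculture and 11.21, 11.19 and 11.11 in co-culture, without overlap. Its difference was -0.53 (standard error 0.18, unadjusted p = 0.00882, adjusted p = 0.681, limma). The median was -0.09 for replication genes and -0.01 for mitosis genes, against 0.07 over all tested genes, and 27 of 45 members were negative against 36.0% of all. E2F2 (-0.43, interval -1.34 to 0.49) and CDT1 (-0.40, interval -1.33 to 0.53) were poorly determined here too, MCM5 had a difference of 0.06 (interval -0.40 to 0.52), and those of MCM7, RRM2, CCNB1 and MKI67 were -0.29, -0.31, 0.27 and -0.27 (adjusted p = 0.747 to 0.786). Non-overlapping groups were found for 7 members (15.6%), CCNB1 and TTK higher and DSCC1, CDC20, MKI67, BIRC5 and MCM7 lower, against 14.3% of all tested genes (10.6% higher and 3.77% lower).

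**Figure D5:**
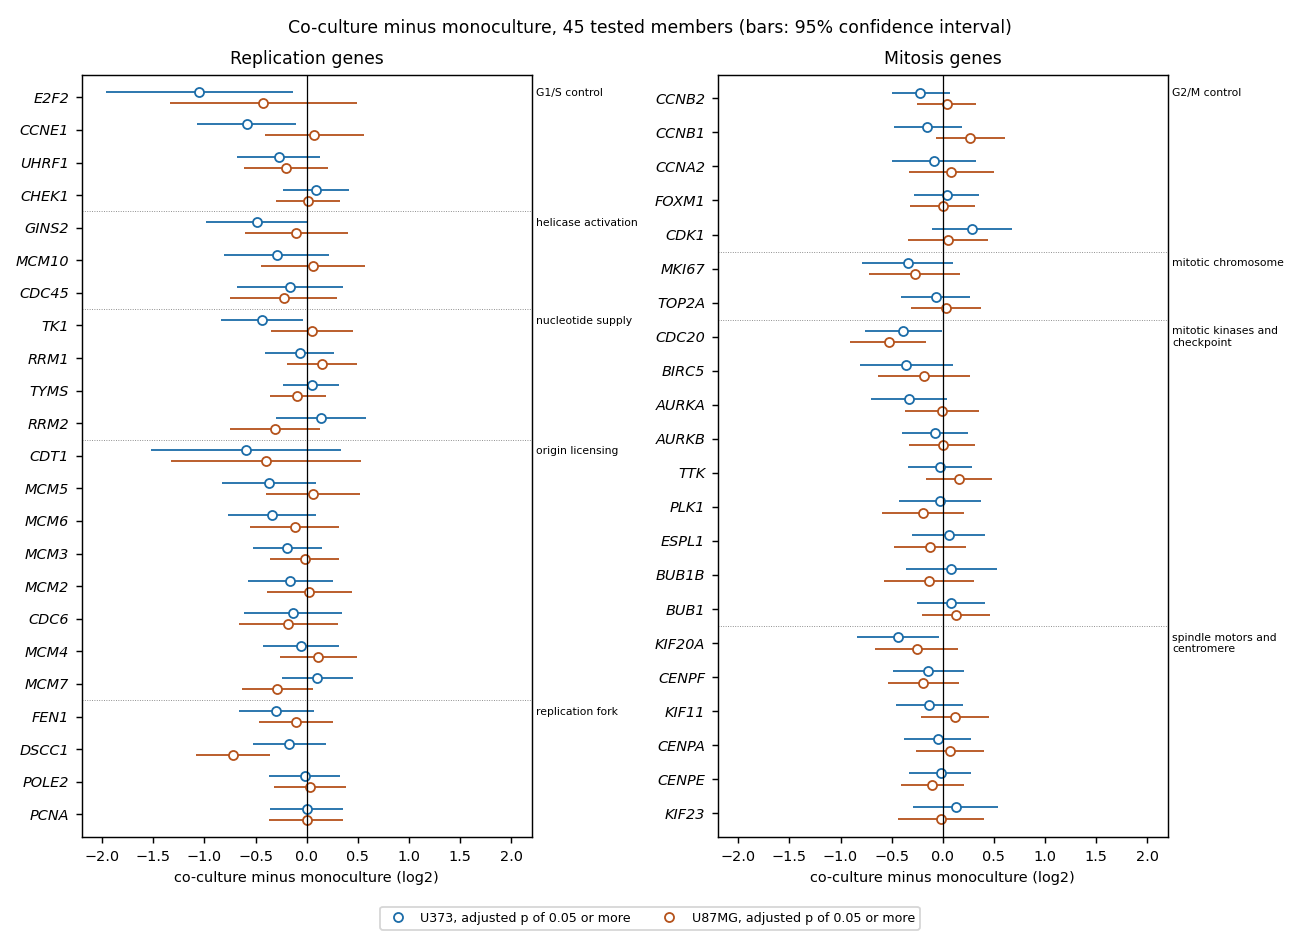
Co-culture minus monoculture (log2) for the 45 tested members in U373 (blue) and U87MG (orange), by role; bars are 95% confidence intervals. No member passed an adjusted p of 0.05; E2F2 and CDT1 have the widest intervals, and CDC20 lies below 0 in both lines.

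The co-culture effects of the lines were compared directly, and no member was called (0.00935% of all tested genes, 1 gene). At an unadjusted p under 0.05 there were 6.26% of all tested genes and 1 member of 45 (2.22%), DSCC1, with an effect 0.55 higher in U373 than in U87MG cells (standard error 0.24, unadjusted p = 0.0341, adjusted p = 0.778, limma). CCNE1 had a difference of effects of -0.66 (unadjusted p = 0.0602, adjusted p = 0.815, limma), TK1 one of -0.49 and CCNB1 one of -0.42 (both adjusted p = 0.827). For E2F2 the difference of effects was -0.62 with an interval of -1.91 to 0.67, and for CDC20 it was 0.15 (interval -0.39 to 0.68). The effects of co-culture on these genes are thus not shown to differ between the lines, nor to be alike.

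Further genes of the pathway were examined from lists of replication and mitosis genes outside the members. Of 45 tested replication genes, 3 were higher and 17 lower in U373 monoculture (44.4% called, median -0.26), and of 57 mitosis genes 5 were higher and 23 lower (49.1%, median -0.37). In co-culture the counts were 3 and 17 (median -0.33), and 3 and 28 (median -0.40). Both shares in monoculture were under the 58.9% called over all tested genes (27.7% higher and 31.2% lower). The background in co-culture was 57.2% (25.5% higher and 31.7% lower). Both lists had more genes called lower than higher in either culture. The mitosis genes outside the members thus leaned lower, whereas the mitosis members split. Lower in monoculture were PRIM1, the primase subunit (-1.32), GINS3 (-1.20) and the dUTPase gene DUT (-1.04), and among mitosis genes SGO1, the protector of centromeric cohesin (-1.77), CENPN (-1.63) and PBK (-1.44). Higher were LIG1, the replicative DNA ligase (0.74), RECQL4 (0.69) and RPA1 (0.66), and CDC25B (1.49), a phosphatase that activates CDK1, KIFC1 (0.94) and CKAP2 (0.64). Adjusted p-values of these 12 genes in limma were 0.0111 or less in monoculture. In co-culture LIG1 (0.41, adjusted p = 0.136, limma) and CKAP2 (0.42, adjusted p = 0.0611, limma) were not called. The other genes named from these lists were called in the same direction there.

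Regulators of both gene groups were examined too. Of 17 tested E2F, RB and DREAM genes, 2 were higher and 5 lower in U373 monoculture (41.2%, against 58.9% of all tested genes). E2F7, a repressing E2F factor, measured 7.36, 7.21 and 7.09 in U373 and 9.86, 10.13 and 9.75 in U87MG cells. The lines were more than 2 units apart, with a difference of -2.69 (standard error 0.28, adjusted p = 9.35e-07, limma). LIN52, a DREAM subunit above background on 2 of 3 U373 monoculture arrays, differed by -2.09 and TFDP1, the E2F dimer partner, by -1.20 (adjusted p = 1.03e-05 and 3.62e-06, limma). In the other direction, E2F3, an activating factor like E2F2, measured 9.80, 9.83 and 9.62 in U373 and 8.29, 8.51 and 8.33 in U87MG cells. It was higher on every U373 array, by 1.38 (standard error 0.16, adjusted p = 2.11e-06, limma), and TFDP2 by 0.84. Of 9 tested S-phase repair genes none was higher and 4 were lower (44.4%), among them RAD51AP1 (-1.02) and EXO1 (-0.83). Of 7 tested CDK inhibitors and p53 targets, 1 was higher (CDKN2D, 0.58) and 5 lower (85.7%). CDKN1A (p21) measured 7.26, 6.71 and 6.93 against 7.99, 7.69 and 8.03, without overlap, a difference of -0.94 (standard error 0.18, adjusted p = 0.000441, limma), and CCNG1 differed by -0.87. CDKN2D was not called between the lines in co-culture (0.38, adjusted p = 0.0677, limma). No gene of these 5 lists was called between co-culture and monoculture in either line.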

How the data were processed

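RNA of 12 cultures was hybridised to Illumina HumanWG-6 v3 BeadChips. The values deposited by the authors are on a natural log scale, after variance stabilization normalization of BeadStudio signals. That base was read from the values, whose highest per array lay between 9.9 and 10.27, that is 19910 to 28739 linear units as natural logs but 955 to 1231 as log2, far below the scanner's range. Dividing by the natural log of 2 gave log2 levels. A table of signals before normalization has 24 columns with no sample names and was not used. Of 48803 probes, 27578 are named for 1 gene (symbols from the RefSeq table of GRCh38.p14), 13 for several and 21212 for none. Probes of a gene were averaged, as in the study's methods. An array's background limit is its mode plus 3 SD estimated from values under the mode, and a gene was tested if a probe exceeded it on at least 3 arrays.

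The model in limma 3.58.1 (R 4.3.3) had 4 group means and 8 residual degrees of freedom, or 14.9 after the spread was drawn toward that of all tested genes. The rank product of the study's methods was not used, because it resamples values over genes. The script was tested on simulated data. Members, lists, motifs and the rule for named genes (members called or, with none called, the 3 smallest p in each gene group; up to 3 called genes in each direction of the other lists) were chosen with earlier results of these data known. Replicate numbers come from the labels. Deviations of same-numbered arrays correlated at 0.1243, 0.1174 and 0.2055 between the monocultures, 0.165, 0.1549 and 0.1332 between the co-cultures and 0.1266, 0.1729 and 0.148 between the U87MG cultures, which meets the rule for pairing (over 0.1 in every pair). Between the U373 cultures they were 0.1926, -0.1024 and 0.5545, which does not. The main fit had no term for the replicate number, also where the rule was met. The fit with that number as a block and the other alternatives are given in the closing section. Tables and figures used Python 3.11.15, pandas 2.3.3 and matplotlib 3.10.9.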

Additional observations from a re-analysis of the deposited data

How the results depend on the processing

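The members called between the lines numbered 24 in monoculture (19 to 25 with 1 array left out, 19 to 28 under the other settings) and 24 in co-culture (20 to 24, and 22 to 25). With the replicate number as a block they numbered 28 and 25, and the block called no member in the other comparisons. Calls kept with each array left out and under every other setting were 13 of 24 in monoculture and 19 of 24 in co-culture. With each array left out alone, 16 and 19 were kept, and under the other settings alone 16 and 21. A call counts as kept where a setting did not test the gene, as for DSCC1 at the limit of 5 SD. The other settings were the replicate number as a block, the brightest probe, probes above background only and no filter on dim genes. They also included background limits at 2 and 5 SD, further quantile normalization and arrays shifted to 1 median. Trended and robust variance, and a fit of only the groups compared, completed them. Between co-culture and monoculture in U373 cells, 0 to 2 members were called with 1 array left out (2 without U373 co-culture replicate 1), and 0 otherwise. The U87MG comparison and the comparison of effects gave 0 throughout. Neqc normalization was not run, since the columns of non-normalized signals could not be given to samples by name. Leaving out 1 of 3 arrays leaves a pair, whose spread is taken from the pooled estimate. Weak signals limit CDC6, BUB1B and DSCC1, which were not above background on all arrays.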
